A study of Mus musculus with 4 samples.

Results

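Axin2, Nkd1, Wif1, Notum, Lgr5, Ascl2, Sp5, Rnf43, Znrf3 and Sox9 are 10 genes that are switched on by Wnt signaling or mark the stem cells at the base of the colonic crypt. They were chosen by name. Each array spot other than a control that carries one of these gene names was used, which gave 13 probes for all 10 genes, out of 22368 genes that could be named on the array. Axin2, Nkd1 and Lgr5 have 2 probes each and the other 7 genes have 1 probe each.

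The signals come from 4 one-color Agilent mouse arrays, 1 per group, each hybridized with RNA pooled from the colons of 3 to 5 male mice aged 42 weeks on a B6.129 (n3) background. The groups were Pla2g3+/+ mice given saline as vehicle, Pla2g3+/+ mice given azoxymethane (AOM), and Pla2g3-/- mice given either agent. AOM, a carcinogen that causes tumors of the colon, was given in 6 weekly intraperitoneal injections of 10 mg/kg, and the colons were removed 28 weeks after the final one. Pla2g3 encodes the secreted phospholipase A2 of group III, and the comparisons ask how the carcinogen and the loss of this enzyme alter gene expression in the colon. The deposited design text describes the AOM tissue as cancer tissue, whereas the methods name the whole descending colon, so the share of tumor in each pool is unknown. Every pool was measured on 1 array, so there is no replicate error and no p-value for any difference between a pair of arrays. The number of arrays limits the precision.

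The Pla2g3 signal did not follow the genotype labels. Signals are given relative to the 75th percentile of the array. The brightest Pla2g3 probe, on chromosome 11 of mm9 from 3394109 to 3394168, read 0.531 in the Pla2g3+/+ vehicle pool, 0.656 in the vehicle pool labeled Pla2g3-/-, 0.232 in the Pla2g3+/+ AOM pool and 1.40 in the AOM pool labeled Pla2g3-/-. The pool labeled Pla2g3-/- was therefore the higher of each pair, 1.23-fold for vehicle and 6.01-fold for AOM. The Pla2g3 probe from 3393127 to 3393186 was also higher in it, 1.06-fold for vehicle and 6.66-fold for AOM. For the probe from 3399294 to 3399353 the difference was at least 2.31-fold for vehicle, where the Pla2g3+/+ signal did not clear background, and 2.76-fold for AOM. Whether the probes of Pla2g3 lie in the deleted part of the gene was not determined, so the signal is no sure check of the labels. The pools are called by their labels throughout, and every direction between genotypes rests on them. From 64.8% to 69.4% of spots per array cleared background by the scanner software's own test, here called well above background, and 0 were saturated. The array percentile used for scaling was an intensity of 646 and 649.9 with vehicle and 1309 and 1169 after AOM.

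Wnt ligands, helped by R-spondins that bind Lgr receptors, keep β-catenin from being degraded, and β-catenin then joins TCF and LEF factors on DNA to turn on target genes. In the colon this signal is strongest at the crypt base, where it maintains stem cells, and it is lost as cells move up and differentiate. Mutations that stabilize β-catenin switch the same targets on in most colon tumors, including those that AOM induces in mice. Many targets are feedback inhibitors: Axin2 and Nkd1 act inside the cell, Wif1 and Notum are secreted, and Rnf43 and Znrf3 clear Wnt receptors from the membrane. Lgr5 is the R-spondin receptor that marks crypt stem cells, and Ascl2, Sp5 and Sox9 are transcription factors.

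Promoter sequences are shown for 3 of these genes because the genes moved together and because TCF and LEF factors bind a known short motif. Sp5 and Wif1 had the largest differences between the AOM pools, and Axin2 lay closest among the 10 genes to their shared profile. The sequences are the 250 bases before the RefSeq gene start on GRCm38.p6, at chr2:70474673-70474922 for Sp5, chr10:121033754-121034003 for Wif1 and chr11:108920099-108920348 for Axin2, all on the plus strand. Capitals mark matches on either strand to the core motif of TCF and LEF factors, searched as ATCAAAG and its variants TTCAAAG and AACAAAG and TACAAAG.
Sp5: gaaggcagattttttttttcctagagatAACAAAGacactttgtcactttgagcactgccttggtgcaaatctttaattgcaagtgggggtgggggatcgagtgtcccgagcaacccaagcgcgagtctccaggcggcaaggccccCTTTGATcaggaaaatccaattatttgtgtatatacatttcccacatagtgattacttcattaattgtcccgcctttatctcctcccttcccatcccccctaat
Wif1: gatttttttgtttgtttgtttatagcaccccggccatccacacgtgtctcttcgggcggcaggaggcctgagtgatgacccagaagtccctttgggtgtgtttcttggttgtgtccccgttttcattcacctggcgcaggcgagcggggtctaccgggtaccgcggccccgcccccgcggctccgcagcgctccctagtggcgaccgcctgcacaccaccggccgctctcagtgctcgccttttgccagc
Axin2: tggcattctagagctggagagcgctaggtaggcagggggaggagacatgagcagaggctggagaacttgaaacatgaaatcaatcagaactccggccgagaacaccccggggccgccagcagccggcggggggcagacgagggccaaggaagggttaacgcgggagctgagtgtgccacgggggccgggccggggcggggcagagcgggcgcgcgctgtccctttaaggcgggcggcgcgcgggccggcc
Sp5 held 2 matches, AACAAAG on the strand of the gene with its first base 222 bases before the start and ATCAAAG on the opposite strand, 104 bases before the start. RefSeq windows were found for 6 of the 10 genes (Axin2, Nkd1, Wif1, Ascl2, Sp5 and Rnf43, the last with 2 starts), and Sp5 was the 1 gene with a match. Of all 27025 genes with a window, 16.8% had a match. A match is a run of letters and not a measured binding site, and its absence from this short window says nothing of the factor.

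The 10 genes had 1 pattern in common on the 4 arrays. All 10 had their highest signal in the Pla2g3+/+ AOM pool, and all except Sox9 were more than 2-fold lower than that on each of the other 3 arrays. Relative to the vehicle pool of the same genotype, the Pla2g3+/+ AOM pool was higher by more than 2-fold for 10 of 10 genes, with a median log2 ratio of 3.06 and a range from 1.54 for Sox9 to 6.61 for Sp5. Over all genes with a value in that comparison, 15.1% were more than 2-fold higher and 22.4% were more than 2-fold lower. In the pools labeled Pla2g3-/-, AOM over vehicle was past 2-fold higher for 1 gene, Sox9, and past 2-fold lower for 3 genes, Wif1, Lgr5 and Sp5, against 9.64% higher and 15.1% lower over all genes. These last counts turned with the scaling, to 3 higher and 0 lower without scaling and to 0 and 0 with normexp background correction and quantile normalization. The shares over all genes turned as well, to 38.1% higher and 3.7% lower without scaling and to 5.4% and 5.2% in the other setting. Between genotypes, 0 genes were higher or lower by more than 2-fold with vehicle, where 1.92% of all genes were higher and 1.32% lower. After AOM, 9 of 10 genes were more than 2-fold lower in the pool labeled Pla2g3-/- and 0 were higher, against 12.9% lower and 15.1% higher over all genes. The Pla2g3+/+ AOM array enters 2 of these comparisons, so its high signals raise one and lower the other. The genes were chosen with earlier results of these data known, and their counts are a description.

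**Figure D1:**
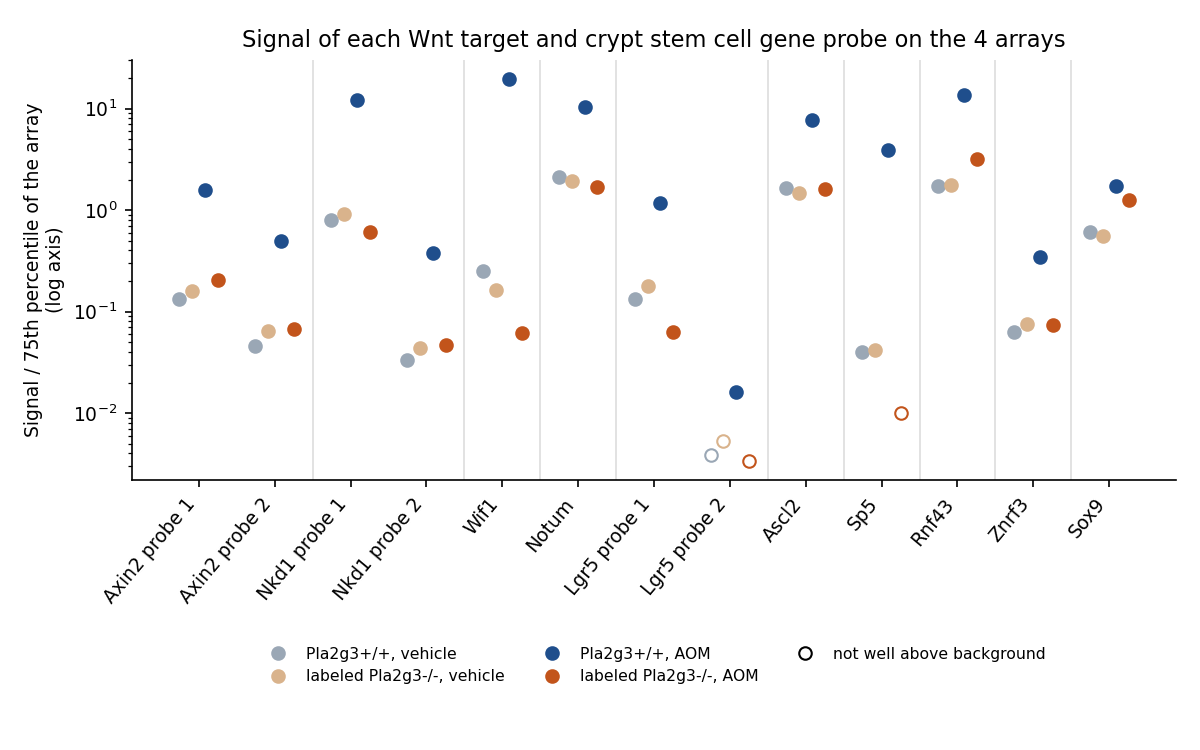
Signal of each of the 13 probes on the 4 arrays, as a ratio to the 75th percentile of the array, on a log axis. Each point is 1 array of 1 pool and open points were not well above background. The dark blue points (Pla2g3+/+, AOM) are the highest at each probe, and Sox9 has the smallest gap between the 2 AOM pools.

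Axin2 and Nkd1 restrain the pathway within the cell, Axin2 as the scaffold of the complex that destroys β-catenin and Nkd1 as a binder of Dishevelled. The brighter Axin2 probe (chromosome 11 of mm9, 108812034 to 108812093) gave 0.133 in the Pla2g3+/+ vehicle pool, 0.160 in the vehicle pool labeled Pla2g3-/-, 1.59 in the Pla2g3+/+ AOM pool and 0.204 in the AOM pool labeled Pla2g3-/-. AOM over vehicle was 12.0-fold in Pla2g3+/+ and 1.28-fold in the pools labeled Pla2g3-/-. After AOM, the signal was 7.81-fold lower in the pool labeled Pla2g3-/-, while with vehicle it was 1.20-fold higher. A single array thus stood out for Axin2, and the remaining 3 lay within 2-fold of each other. The dimmer Axin2 probe (108803927 to 108803986) gave 0.0463, 0.0641, 0.494 and 0.0681 in the same order of pools. It was 10.7-fold higher after AOM in Pla2g3+/+ and 7.26-fold lower in the AOM pool labeled Pla2g3-/-, so both probes had the Pla2g3+/+ AOM pool as the high array.

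The brighter Nkd1 probe (chromosome 8, 91116160 to 91116219) had signals of 0.805 and 0.916 in the Pla2g3+/+ and labeled Pla2g3-/- vehicle pools and of 12.2 and 0.603 in the corresponding AOM pools. It was 15.2-fold higher with AOM than with vehicle in Pla2g3+/+. In the pools labeled Pla2g3-/- it was 1.52-fold lower with AOM than with vehicle, within the 2-fold limit. The AOM pools differed 20.3-fold, and here the AOM pool labeled Pla2g3-/- was the lowest of the 4. The dimmer Nkd1 probe (91118468 to 91118527) had signals of 0.0333, 0.0439, 0.381 and 0.0464, in the order Pla2g3+/+ vehicle, labeled Pla2g3-/- vehicle, Pla2g3+/+ AOM and labeled Pla2g3-/- AOM. It differed 8.21-fold between the AOM pools, and it did not place the AOM pool labeled Pla2g3-/- below the vehicle pools.

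Wif1 and Notum are secreted inhibitors, Wif1 a protein that binds Wnt ligands and Notum an enzyme that removes the lipid they need for activity. Wif1 (chromosome 10, 120537079 to 120537138) had a signal of 0.252 in the Pla2g3+/+ vehicle pool, 0.162 in the vehicle pool labeled Pla2g3-/-, 19.5 in the Pla2g3+/+ AOM pool and 0.0617 in the AOM pool labeled Pla2g3-/-. AOM over vehicle was 77.6-fold in Pla2g3+/+, and in the pools labeled Pla2g3-/- the signal was 2.63-fold lower after AOM. The AOM pools differed 316-fold, the largest gap of the 10 genes among those measured above background on both arrays. Wif1 therefore moved past 2-fold in opposite directions under the 2 genotype labels, but under the Pla2g3-/- label its log2 ratio of −1.40 became −0.55 without scaling and −0.77 with normexp and quantile normalization, short of 2-fold. Notum (chromosome 11, 120515209 to 120515268) had signals of 2.13 and 1.94 in the vehicle pools and 10.3 and 1.70 in the AOM pools, Pla2g3+/+ first. It was 4.83-fold higher after AOM in Pla2g3+/+, 1.15-fold lower after AOM in the pools labeled Pla2g3-/- and 6.08-fold lower in the latter AOM pool than in the Pla2g3+/+ AOM pool. All pools except the Pla2g3+/+ AOM pool lay close together for Notum.

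Lgr5, Rnf43 and Znrf3 act at the membrane. Lgr5, the stem cell marker, had signals at its brighter probe (chromosome 10, 114887403 to 114887462) of 0.134 in the Pla2g3+/+ vehicle pool, 0.178 in the vehicle pool labeled Pla2g3-/-, 1.19 in the Pla2g3+/+ AOM pool and 0.0628 in the AOM pool labeled Pla2g3-/-. It was 8.86-fold higher after AOM in Pla2g3+/+ and 2.84-fold lower after AOM in the pools labeled Pla2g3-/-, the latter also short of 2-fold under both of these settings (log2 ratios of −0.66 and −0.78). The AOM pools differed 18.9-fold, and as for Wif1 the AOM pool labeled Pla2g3-/- was the lowest array. The other Lgr5 probe (114900686 to 114900745) was well above background in the Pla2g3+/+ AOM pool alone, with a signal of 0.0163 there and of 0.00387, 0.00527 and 0.00338 in the remaining pools. Its dim side allowed only a bound, at least 1.11-fold lower in the AOM pool labeled Pla2g3-/-, so this probe does not measure the size of the gap.

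Rnf43 and Znrf3 are paired ubiquitin ligases that remove Frizzled receptors and so oppose Wnt signaling, until R-spondin and Lgr receptors neutralize them. Rnf43 (chromosome 11, 87548958 to 87549017) had signals of 1.74 and 1.76 in the vehicle pools and 13.7 and 3.17 in the AOM pools, Pla2g3+/+ first. It was 7.87-fold higher after AOM in Pla2g3+/+ and 1.80-fold higher in the pools labeled Pla2g3-/-. After Sox9 it thus had the highest ratio of AOM over vehicle under the Pla2g3-/- label, although short of 2-fold, and the AOM pools still differed 4.32-fold. Znrf3 (chromosome 11, 5180918 to 5180977) gave 0.0634 and 0.0748 with vehicle and 0.342 and 0.0737 after AOM. AOM over vehicle was 5.39-fold in Pla2g3+/+, and in the pools labeled Pla2g3-/- the signals with and without AOM were almost equal, at a 1.02-fold difference. The AOM pools differed 4.64-fold for Znrf3, in this scaling close to the value of its partner. With normexp and quantile normalization, this log2 ratio was −1.31 in place of −2.21 for Znrf3, and −2.285 in place of −2.111 for Rnf43. In that setting, AOM over vehicle in Pla2g3+/+ had a log2 ratio of 1.43 in place of 2.43 for Znrf3.

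Ascl2, Sp5 and Sox9 are transcription factors of the crypt base, of which Ascl2 controls the stem cell program and Sp5 is a direct Wnt target. Ascl2 (chromosome 7, 150152734 to 150152793) had signals of 1.66 and 1.48 in the vehicle pools and 7.66 and 1.62 in the AOM pools, Pla2g3+/+ first. It was 4.60-fold higher after AOM in Pla2g3+/+, 1.09-fold higher in the pools labeled Pla2g3-/- and 4.74-fold lower in the AOM pool labeled Pla2g3-/- than in that of Pla2g3+/+. Apart from the Pla2g3+/+ AOM pool, the Ascl2 signal was nearly the same on every array.

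Sp5, whose promoter sequence with its 2 motif matches is given above, had at its probe (chromosome 2, 70315688 to 70315747) signals of 0.0402 and 0.0417 with vehicle, 3.92 in the Pla2g3+/+ AOM pool and 0.0101 in the AOM pool labeled Pla2g3-/-, where it was not well above background. It was 97.7-fold higher after AOM in Pla2g3+/+. A dim signal was replaced by the lowest reading that cleared background on its array, 0.0146 in the AOM pool labeled Pla2g3-/-, unless the dim signal was higher, and the fold change is then a bound. By that bound Sp5 was at least 268-fold lower in the AOM pool labeled Pla2g3-/- than in the Pla2g3+/+ AOM pool, and at least 2.85-fold lower than in the vehicle pool of the same label. Sp5 was the 1 gene of the 10 that dropped below detection on any array by its brightest probe. With normexp background correction and quantile normalization, the log2 ratio between the AOM pools was −4.98 in place of −8.07, and that of AOM over vehicle in the pools labeled Pla2g3-/- was −0.29. In the same setting, the log2 ratio of AOM over vehicle in Pla2g3+/+ was 4.73 in place of 6.61.

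Sox9, a factor of crypt base and progenitor cells, was the exception. Its probe (chromosome 11, 112648809 to 112648868) is present in 10 spots per array, and the mean signal with the SD over these spots was 0.603 ± 0.035 in the Pla2g3+/+ vehicle pool, 0.552 ± 0.038 in the vehicle pool labeled Pla2g3-/-, 1.75 ± 0.12 in the Pla2g3+/+ AOM pool and 1.26 ± 0.12 in the AOM pool labeled Pla2g3-/-. The spots of the 2 AOM pools did not overlap, running from 1.57 to 1.93 and from 1.12 to 1.48, and those of the 2 vehicle pools did overlap, from 0.545 to 0.657 and from 0.511 to 0.621. Spots repeat the hybridization and not the mice, so this spread covers the array alone. Over probes with 3 or more spots and well above background, the median SD was 0.057 and 0.066 log2 units on the 2 AOM arrays. The log2 ratios of all genes measured on both AOM arrays had an SD of 1.20. How many other probes had spots without overlap was not counted. Sox9 was 2.90-fold higher after AOM in Pla2g3+/+ and 2.28-fold higher in the pools labeled Pla2g3-/-. In the scaling used here it was the 1 gene past 2-fold higher after AOM under both labels, whereas under the Pla2g3-/- label normexp and quantile normalization brought its log2 ratio to 0.99, and other genes passed 2-fold as well without scaling (Axin2 at 1.20 and Rnf43 at 1.69) or with scaling to epithelial genes (Rnf43 at 1.02). Sox9 was also the 1 gene within 2-fold between the AOM pools, at 1.39-fold lower.

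**Figure D2:**
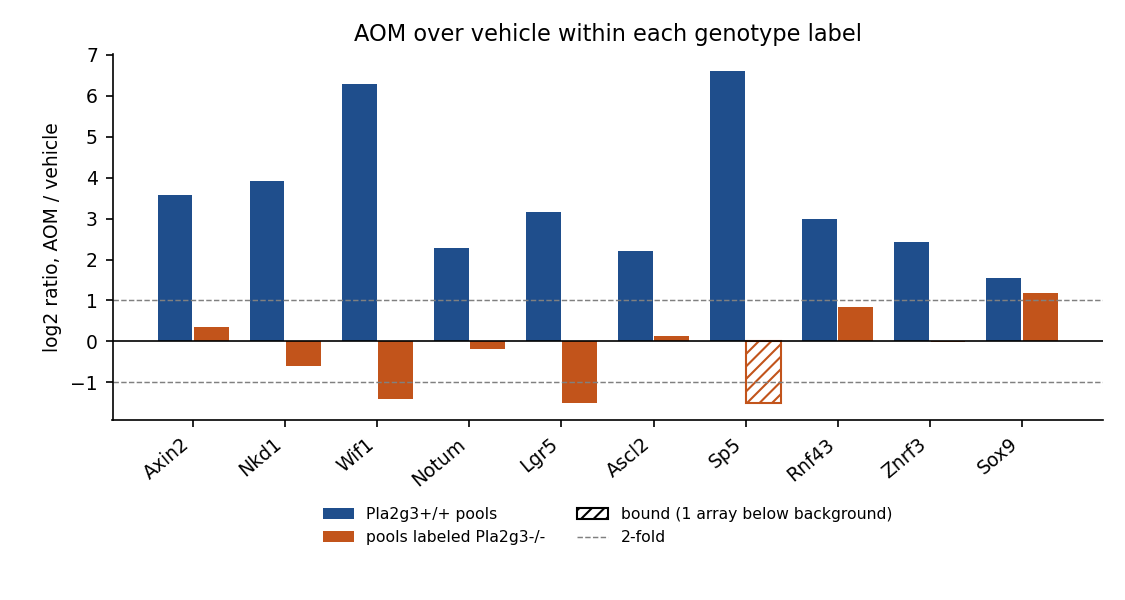
log2 ratio of AOM over vehicle for the brightest probe of each gene, in the Pla2g3+/+ pools (blue) and the pools labeled Pla2g3-/- (orange), from 1 array per pool. Dashed lines mark 2-fold and the hatched bar is a bound. All blue bars pass 2-fold upward, from 1.54 to 6.61, whereas the orange bars lie between −1.51 and 1.19.

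With vehicle, the genotype labels differed little for these genes. The log2 ratio of the vehicle pool labeled Pla2g3-/- over the Pla2g3+/+ vehicle pool ran from −0.63 for Wif1 to 0.41 for Lgr5, with a median of 0.04 and all 10 genes within 2-fold. After AOM the same ratio ran from −8.31 for Wif1 to −0.47 for Sox9, with a median of −2.78. The difference between these ratios was not tested, as each rests on a pair of single arrays. On the vehicle array labeled Pla2g3-/-, 10 of 10 genes of pancreatic acinar cells were higher, with a median log2 ratio of 5.27 and a summed signal of 47.8 against 0.389. Amy2a5, an amylase gene, made up most of that sum with 34.7 and was at least 2091-fold higher, while Ctrb1, a protease gene and the highest of the list by mean log2 signal over the 4 arrays, was 25.5-fold higher. The 10 Wnt target and stem cell genes stayed within 2-fold on that array. The acinar genes are part of the control signal for AOM over vehicle under the Pla2g3-/- label, and their part in it was not tested.

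**Figure D3:**
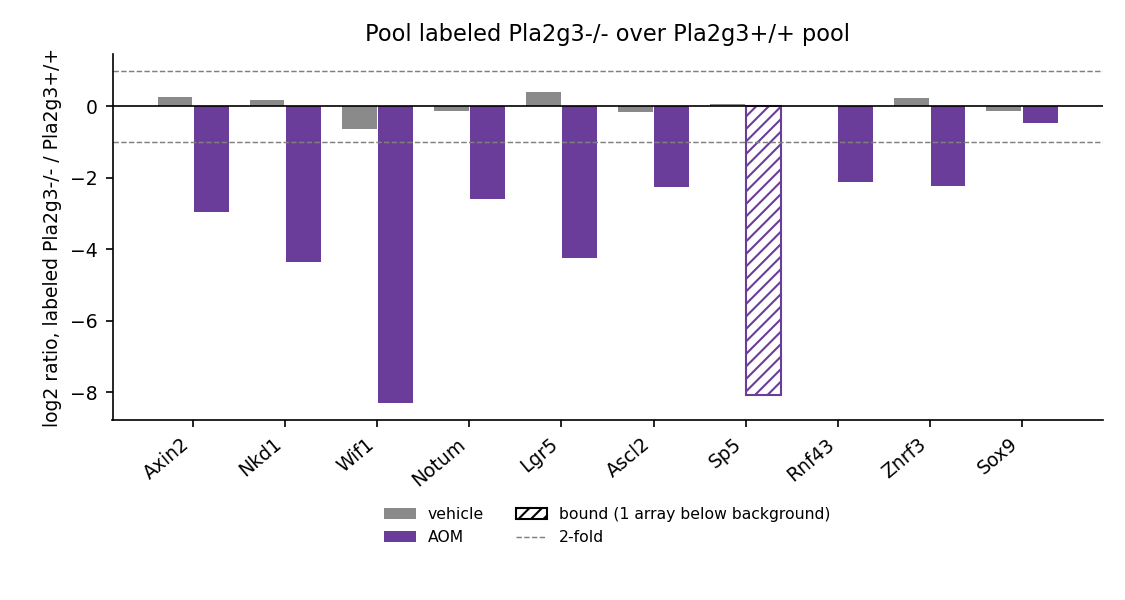
log2 ratio of the pool labeled Pla2g3-/- over the Pla2g3+/+ pool for the brightest probe of each gene, with vehicle (gray) and after AOM (purple), from 1 array per pool. Dashed lines mark 2-fold and the hatched bar is a bound. The gray bars lie between −0.63 and 0.41, and the purple bars are all negative, 9 of them past 2-fold.

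A model of treatment and genotype was fitted to the 4 arrays with limma, with 1 residual degree of freedom. It asks for effects that are alike under both levels of the other factor, which is not the pattern that these genes had. Its error term is the difference in AOM over vehicle between the labels. For a gene that is high on 1 array, the SE therefore holds that difference and is no replicate error. The fit cannot tell such a pattern from noise. At an adjusted p of 0.05 it called 0 of 17877 genes (0%) for treatment, while 2410 had an unadjusted p under 0.05 and the smallest adjusted p was 0.368, and 0 genes (0%) for genotype, for which these values were 215 and 0.994. Sox9, which moved the same way under both labels, had a treatment difference of 1.36 log2 units with an SE of 0.32 and an adjusted p of 0.368 by limma. Wif1 had a larger genotype difference, −4.47, with an SE of 2.32 and an adjusted p of 0.994 by limma. None of the 10 genes passed the limma threshold for either factor, at adjusted p-values from 0.368 to 0.766 for treatment.

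Of 12 other Wnt target genes listed for comparison, 11 had a value between the AOM pools, of which 8 were more than 2-fold lower and 0 higher in the pool labeled Pla2g3-/-, with a median log2 ratio of −2.66. In Pla2g3+/+, AOM over vehicle was past 2-fold higher for 8 of these 11 and lower for 0, with a median of 2.44. The 3 genes that follow had the largest gaps. Mmp7, a matrix protease of intestinal tumors and of Paneth cells, had signals of 0.487 and 0.576 with vehicle, 17.4 in the Pla2g3+/+ AOM pool and 0.0118, below background, in the AOM pool labeled Pla2g3-/-, at least 1186-fold lower. Apcdd1, a membrane inhibitor of Wnt signaling, was 47.6-fold lower, with signals of 1.16 and 0.0244 in the AOM pools, and Prox1, a transcription factor induced in colon tumors, was at least 39.5-fold lower, with 0.646 and a dim 0.0163. Under the Pla2g3-/- label, AOM over vehicle was past 2-fold for 1 of 9 genes of this list, Mmp7, which was at least 39.4-fold lower after AOM. The other Wnt targets thus had counts in the same directions as the 10 genes, and Ephb2, Ephb3 and Nkd2 were the 3 within 2-fold between the AOM pools.

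Other genes linked to crypt stem cells were divided. Of 12, 4 were more than 2-fold higher and 4 lower in the AOM pool labeled Pla2g3-/-, and the median log2 ratio was −0.34. Lower were Sox4, a transcription factor of progenitors (8.06-fold), Smoc2, a secreted protein that Lgr5-positive cells express (3.05-fold), Tnfrsf19, also called Troy (2.89-fold), and Hopx, a homeodomain protein of slowly cycling crypt cells (2.39-fold). Higher were Olfm4, a secreted glycoprotein that marks stem cells of the human crypt and the mouse small intestine (at least 28.0-fold, below background in the Pla2g3+/+ AOM pool), Rgmb, a co-receptor for bone morphogenetic proteins (4.17-fold), Lrig1, an inhibitor of growth factor receptors (2.88-fold), and Msi1, an RNA-binding protein (2.86-fold). With AOM over vehicle in Pla2g3+/+, 3 of 11 genes were past 2-fold higher and 3 lower. Over all genes, 15.1% were higher and 12.9% lower between the AOM pools, and 15.1% and 22.4% for AOM over vehicle in Pla2g3+/+. The list thus had no common direction, unlike Lgr5 and Ascl2 among the 10 genes, which were both lower in the AOM pool labeled Pla2g3-/-.

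None of the upstream genes listed was past 2-fold lower between the AOM pools. Over all genes, 12.9% were past 2-fold lower and 15.1% higher in the AOM pool labeled Pla2g3-/-. Of the 6 R-spondins, Lgr receptors and Lrp co-receptors with a value, 3 were past 2-fold higher and 0 lower in the AOM pool labeled Pla2g3-/-, with a median log2 ratio of 0.86. Rspo1 was 25.1-fold higher, at 0.0201 in the Pla2g3+/+ AOM pool and 0.504 in the AOM pool labeled Pla2g3-/-, Rspo3 was 11.7-fold higher and Lgr4 was 2.06-fold higher. Rspo1 and Rspo3, ligands made by stromal cells, were also 9.03-fold and 8.27-fold lower with AOM than with vehicle in Pla2g3+/+. Both Rspo1 ratios rest on the dim 0.0201, near 0.0126, the lowest reading that cleared background on the Pla2g3+/+ AOM array. Of 16 core members of the β-catenin pathway, 13 were within 2-fold between the AOM pools, and the median log2 ratio was 0.06. Ctnnb1, the gene of β-catenin itself, had signals of 8.19 and 7.36 with vehicle and 12.3 and 9.58 after AOM. The 3 core genes past 2-fold were all higher in the AOM pool labeled Pla2g3-/-, namely Tcf7l1 (5.01-fold) and Tcf7l2 (2.70-fold), which encode TCF factors, and Btrc (2.19-fold), which encodes the ligase subunit that tags β-catenin for degradation. Lef1 and Tcf7, which encode further TCF and LEF factors and were listed with the Wnt targets, were 18.2-fold and 9.14-fold lower in that pool.

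The pools also differed in the genes of other cell types, and because these are bulk samples, fewer cells of a type and less RNA per cell cannot be told apart. Smooth muscle genes, with Tagln as the most abundant by mean log2 signal over the 4 arrays (the measure also used for the lists that follow), were 10 of 10 past 2-fold lower in the Pla2g3+/+ AOM pool than with vehicle, with a median log2 ratio of −4.34, and 10 of 10 higher in the AOM pool labeled Pla2g3-/- than in the Pla2g3+/+ AOM pool, with a median of 4.15. Their summed signal was 520 and 546 in the vehicle pools, 31.7 in the Pla2g3+/+ AOM pool and 501 in the AOM pool labeled Pla2g3-/-, and Lmod1 was not well above background in the Pla2g3+/+ AOM pool. Goblet cell genes (most abundant Zg16) were 8 of 8 lower in the Pla2g3+/+ AOM pool than with vehicle, with a median of −3.42, and 8 of 8 higher in the AOM pool labeled Pla2g3-/-, with a median of 2.13. In the AOM pool labeled Pla2g3-/- over that of Pla2g3+/+, genes of differentiated colonocytes (Guca2a) were past 2-fold higher for 7 of 9 and lower for 1, with a median of 2.07, and those of enteric glia and neurons (S100b) were higher for 5 of 8 and lower for 0, with a median of 1.60. The Pla2g3+/+ AOM array, on which all 10 Wnt target and stem cell genes peaked, was thus also the array with the least signal of muscle and of differentiated epithelium.

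The other lists had smaller medians, mixed directions or few genes with a value. Between the AOM pools, 15.1% of all genes were past 2-fold higher and 12.9% lower in the pool labeled Pla2g3-/-. General epithelial genes (Krt8) had a summed signal between 359 and 546 on the 4 arrays, with 1 of 8 past 2-fold higher and 0 lower in the AOM pool labeled Pla2g3-/- and a median of 0.67. In the same comparison, proliferation genes (Birc5) were past 2-fold lower for 2 of 10 and higher for 0, with a median of −0.61. Paneth cell genes (Ang4) were lower for all 5 that have a probe, with a median of −5.54. In Pla2g3+/+, 3 of the 5 were past 2-fold higher and 1 lower with AOM than with vehicle. Defa3 was at least 1554-fold and Defa23 1238-fold higher on the array on which the 10 genes peaked. The 1 lower gene was Ang4, 28.5-fold lower. Squamous genes (Trp63) were past 2-fold higher between the AOM pools for 2 of 6, with a median of 0.58, and Krt5 was 574-fold higher. With AOM over vehicle, the squamous keratin genes Krt14 and Krt15 were higher under both labels, 13.8-fold and 112-fold in Pla2g3+/+ and 36.4-fold and 79.9-fold in the pools labeled Pla2g3-/-. The squamous list was mixed in this comparison, past 2-fold higher for 2 of 6 and lower for 3 in Pla2g3+/+, with a median of −0.60. Under the Pla2g3-/- label, 3 of 7 were past 2-fold higher and 1 lower, with a median of 0.99. Acinar genes were past 2-fold higher between the AOM pools for 1 of 3, with a median of −0.15. For AOM over vehicle under the Pla2g3-/- label, smooth muscle genes had a median of −0.10 with 1 of 10 past 2-fold higher and 0 lower, and goblet cell genes had a median of −1.30 with 6 of 8 lower. The part of these cell types in the Wnt target result was not tested. When each array was scaled to its general epithelial genes in place of its 75th percentile, a setting chosen after these lists were seen, the 10 genes had a median of 3.90 for AOM over vehicle in Pla2g3+/+ and of −3.59 between the AOM pools, and the same setting moved the median of all genes from −0.17 to 0.67 and from 0.03 to −0.78.

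**Figure D4:**
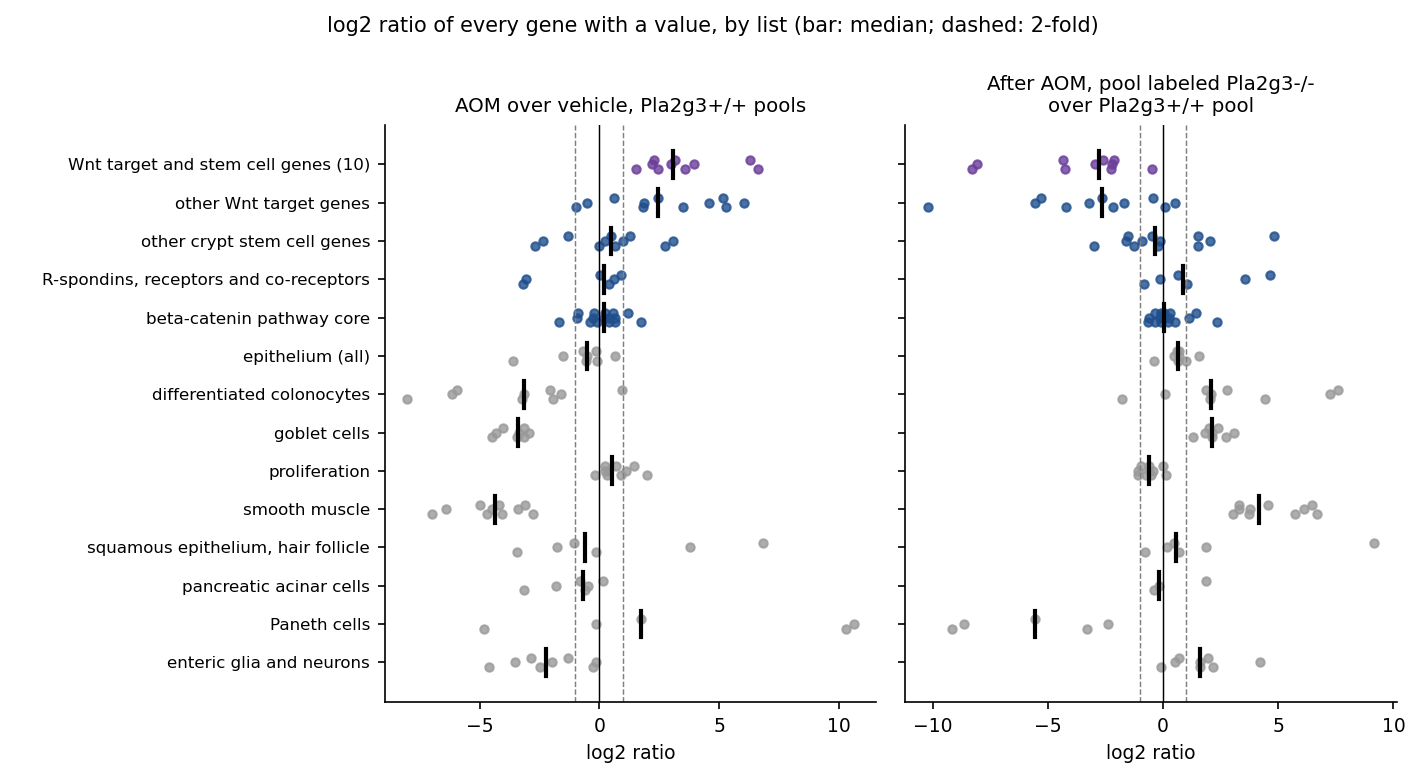
log2 ratio of every gene with a value, for the 10 Wnt target and stem cell genes (purple), 4 other pathway lists (blue) and 9 cell type lists (gray), for AOM over vehicle in Pla2g3+/+ (left) and for the AOM pool labeled Pla2g3-/- over the Pla2g3+/+ AOM pool (right). Each point is a gene, short bars are medians and dashed lines mark 2-fold. The purple and smooth muscle points lie on opposite sides in both panels, with medians of 3.06 and −4.34 at left and −2.78 and 4.15 at right.

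The genes most like the 10 in profile were sought among 17867 others, by the root mean square difference in log2 signal from their median profile over the 4 arrays after centering. That profile was −0.81 for Pla2g3+/+ vehicle, −0.74 for the vehicle pool labeled Pla2g3-/-, 2.24 for Pla2g3+/+ AOM and −0.66 for the AOM pool labeled Pla2g3-/-. Among the 8 nearest genes were Wnt5a (0.055), Ccn4 (0.072), Sox4 (0.110), Tgtp1 (0.124), Pilra (0.128), Gls2 (0.129) and Csgalnact1 (0.132). Wnt5a encodes a Wnt ligand and had signals of 0.273 and 0.293 with vehicle and 2.30 and 0.335 after AOM, Pla2g3+/+ first. Ccn4 encodes a secreted protein first known as Wisp1 and had 0.125 and 0.133 with vehicle and 1.02 and 0.1555 after AOM. Among the 10 genes, Axin2 was nearest to the shared profile (0.212) and Wif1 (1.98) and Sp5 (1.89) were farthest, with Sox9 at 0.867. A profile of 4 arrays in which 1 array stands apart is a weak measure of likeness, and 32 other genes lay as near to it as Axin2. Of the 17867 others, 1649 lay as near as Sox9 or nearer, 15484 as near as Sp5 and 15979 as near as Wif1.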

How the data were processed

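The 4 arrays were scanned and read with Agilent Feature Extraction 11.5.1.1, per the submitters' processing notes. The intensity of each spot was deposited by the authors and is, per the file headers, background-subtracted and detrended, with no scaling from one array to the next. The deposited table of the whole series holds a ratio, the authors' intensity over the 75th percentile of its array, which was checked against each array. The deposited flag for signals well above background was used as given. Control spots and outlier spots were left out, log2 intensities of spots of a probe were averaged and the 75th percentile of the array was subtracted. The brightest probe stood for each gene, named through the RefSeq table of GRCm38.p6 (31367 of 39423 probes matched). Probe positions were copied from the scanner files (mm9), and no mm9 annotation was used here, so exons and UTRs were not assigned. Groups came from the deposited genotype and treatment labels. The 4 comparisons were differences of log2 values between 2 arrays, called past 2-fold, and limma 3.58.1 in R 4.3.3 (Benjamini-Hochberg) was the sole test. Both were run on simulated data in which AOM had the same effect under both labels. That simulation does not bear on limma where the effect differs between the labels. Tables and figures used Python 3.11.15.

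All probes of the 10 genes are given. Of each other pathway list, the 3 largest rises and 3 largest falls past 2-fold between the AOM pools were to be named, of each cell type list the most abundant gene, and 8 genes of most alike profile, of which 1 is not reported here. Hopx, Msi1, Ctnnb1, Lef1, Tcf7, Lmod1, Ephb2, Ephb3, Nkd2, Amy2a5, Defa3, Defa23, Krt5, Krt14 and Krt15 were named after their values were seen. The genes and lists were chosen with earlier results of these data known. Alternatives were other scalings, background correction, treatment of dim probes, choice of probe, threshold and an intensity trend in limma.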

Additional observations from a re-analysis of the deposited data

Results flagged for a closer look

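For 3 of the 10 genes, AOM over vehicle passed 2-fold in opposite directions under the 2 genotype labels. The log2 ratio was 6.28 in Pla2g3+/+ and −1.40 in the pools labeled Pla2g3-/- for Wif1, 3.15 and −1.51 for Lgr5, and 6.61 and −1.51 for Sp5, the last a bound because Sp5 was below background in the AOM pool labeled Pla2g3-/-. The difference between the labels was not tested, since each ratio rests on 2 single arrays. Of 16112 genes with a value under both labels, 179 (1.11%) were higher in Pla2g3+/+ and lower under the Pla2g3-/- label past 2-fold, and 193 went the other way. Under the Pla2g3-/- label, all 3 kept their sign but no longer passed 2-fold without scaling (−0.55 for Wif1, −0.66 for Lgr5 and for Sp5) or with normexp and quantile normalization (−0.77, −0.78 and −0.29). Sp5 also fell short with the floor set after scaling (−0.87), and had no value when both arrays had to be well above background, as had Lgr5 with its dimmest probe.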

How the results depend on the processing

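Across the alternatives with a 2-fold threshold, the count of the 10 genes past 2-fold stayed between 9 and 10 higher for AOM over vehicle in Pla2g3+/+ and between 8 and 10 lower between the AOM pools, with no gene in the opposite direction. The count of 9 came with the dimmest probe of each gene, in which Lgr5 has no value, that of 8 with the dimmest probe, in which Lgr5 has a small bound, and with genes well above background on both arrays, which leaves out Sp5, and 10 lower came with epithelial scaling, under which Sox9 also passed 2-fold. With epithelial scaling, 37.6% of all genes were past 2-fold lower between the AOM pools, against 12.9% with the scaling used here. The median for AOM over vehicle in Pla2g3+/+ ran from 2.61 with normexp and quantile normalization to 4.08 without scaling, and was 3.90 with epithelial scaling. That between the AOM pools ran from −3.59 with epithelial scaling to −2.42 with the dimmest probe. Under the Pla2g3-/- label, AOM over vehicle depended on the setting. It was past 2-fold for 3 genes higher and 0 lower without scaling (median 0.74), and for 0 and 0 with normexp and quantile normalization. The counts were 2 higher and 3 lower with epithelial scaling, 2 and 4 at a 1.5-fold threshold, and 0 and 0 at 4-fold. Shares of all genes past 2-fold higher and lower were 38.1% and 3.7% without scaling, 5.4% and 5.2% with normexp, and 13.6% and 11.1% with epithelial scaling. With vehicle, 1 gene was lower at a 1.5-fold threshold. Leaving out scaling moved the median of all genes from −0.17 to 0.87 in Pla2g3+/+ and from −0.08 to 0.76 under the Pla2g3-/- label, and the share of all genes past 2-fold higher and lower in Pla2g3+/+ from 15.1% and 22.4% to 45.1% and 7.17%. The limma count was 0 in all 5 settings. Of the ratios of single genes under the alternatives, those that moved by less and by more than 1.5-fold numbered 85 and 24 for AOM over vehicle in Pla2g3+/+, 93 and 15 for the same under the Pla2g3-/- label, 109 and 0 between the vehicle pools, and 89 and 20 between the AOM pools, and no ratio past 2-fold changed sign. No paired analysis was possible because each group has 1 array, and for the same reason no array could be left out. Dim signals limit Sp5 and the other Lgr5 probe.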
